A study of Mus musculus with 16 samples.

Results

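Hemoglobin and heme synthesis genes were followed across hematopoietic stem cell (HSC) populations sorted by surface MAC-1, and 1 of them, the adult beta-globin gene Hbb-bt, rose with MAC-1 after transplantation. The set was chosen by gene symbol and held 9 of the 46078 genes in the count table. These are the adult alpha-globin genes Hba-a1 and Hba-a2, the adult beta-globin genes Hbb-bs and Hbb-bt, and the heme enzyme genes Alas1, Alas2, Urod, Ppox and Fech. All 9 were in the table, 8 had at least 1 count and 8 passed the filter on low counts. Alas2 had 0 counts in all 16 libraries.

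Hemoglobin carries oxygen in red blood cells and is built from alpha and beta globin chains that each hold a heme group. Heme is made in a chain of enzymatic steps that starts and ends in the mitochondrion, and every cell needs some of it for cytochromes and other enzymes. Globin genes and the erythroid form of the first heme enzyme are switched on strongly when erythroid precursors mature, under GATA and KLF family factors, whereas HSCs sit upstream of that program.

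The libraries were bulk RNA-seq of live HSCs, all labelled wild type and of strain B6.SJL, sorted as c-Kit+, Sca-1+, CD48-, CD150+ cells without T, B, NK, granulocyte or erythroid surface markers, so a gate on TER119 stood before every library. Steady-state (SS) mice, labelled untreated, gave SS MAC-1- (n = 3) and SS MAC-1low (n = 3) HSCs. Lethally irradiated mice (900 cGy) that had received 8000 Lin-, Sca-1+, c-Kit+ (LSK) cells 4 weeks earlier gave 4 week MAC-1- (n = 3), 4 week MAC-1low (n = 4) and 4 week MAC-1+ (n = 3) HSCs. The study's methods describe serial transplantations at this dose with B6SJL donors and C57Bl/6 recipients, which also received recipient-type marrow, but do not say so for the sequenced cells, so the strain of the irradiated hosts is not given for these libraries. There was no SS MAC-1+ population, and transplantation, irradiation and the 4 week interval came together, so that their parts cannot be told apart. The labels number replicates without saying that they came from separate mice, so p-values measure the spread between these libraries.

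Library totals ran from 13781278 to 28580658 counts, with 14533 to 17576 genes detected. A floor of 3 counts corresponded to between 0.112 and 0.220 CPM, the counts scaled by library total and by trimmed mean of M-values (TMM) factors. Itgam, which encodes the alpha chain of MAC-1, was at 96 to 478 counts in 4 week MAC-1+ libraries and at 0 to 47 counts in 4 week MAC-1- libraries. Adult globin counts made up between 0.00116% and 0.0103% of a library's counts.

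The globin pairs are close copies, which limits how their reads can be assigned. In the GENCODE annotation of GRCm38.p6, Hbb-bt lies on chromosome 7 (103812524 to 103813996, minus strand) and Hbb-bs on the same chromosome (103826534 to 103828096, minus strand). Hba-a1 (32283511 to 32284465, plus strand) and Hba-a2 (32296489 to 32297298, plus strand) lie on chromosome 11. All 4 are protein coding. The coding sequences of Hbb-bs and Hbb-bt differed at 1 of 441 aligned bases, C417T, counted from the first base of the start codon with the Hbb-bs base first, and those of Hba-a1 and Hba-a2 at 1 of 426 bases. The coding stretch around that difference is shown because it is the sole coding base by which a read could be given to one beta-globin gene or the other, with the differing base in capitals.
Hbb-bs, coding bases 358 to 417: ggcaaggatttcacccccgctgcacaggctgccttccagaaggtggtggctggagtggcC
Hbb-bt, coding bases 358 to 417: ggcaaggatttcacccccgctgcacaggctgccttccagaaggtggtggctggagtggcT
Of all 50-base windows in the Hbb-bt transcript, 58.3% also occurred in Hbb-bs, and 65.8% of Hbb-bs windows occurred in Hbb-bt. The shares were 67.5% for Hba-a1 and 86.9% for Hba-a2 against each other. How the counting program treated such reads is not given in the sources used here, so each split within a pair is uncertain and the sum of each pair is given beside it.

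The promoters of the beta-globin pair differ far more than their coding sequences. They are shown as sequence only, and any part of them in the counts of both genes was not tested. RefSeq promoter windows (GRCm38.p6) were found for 8 of the 9 members. The windows below hold the 250 bases before the RefSeq start, written 5′ to 3′ on the gene's strand. Capitals mark CACCC (a KLF-type motif), CCAAT, and the GATA-type motifs AGATAA and TGATAA, searched on both strands.
Hbb-bt, chr7:103813924-103814173, minus strand: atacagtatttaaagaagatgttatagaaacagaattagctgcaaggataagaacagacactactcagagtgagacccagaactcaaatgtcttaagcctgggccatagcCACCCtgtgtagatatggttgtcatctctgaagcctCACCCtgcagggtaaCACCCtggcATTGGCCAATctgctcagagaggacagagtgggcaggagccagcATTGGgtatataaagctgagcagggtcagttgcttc
Hbb-bs, chr7:103827929-103828178, minus strand: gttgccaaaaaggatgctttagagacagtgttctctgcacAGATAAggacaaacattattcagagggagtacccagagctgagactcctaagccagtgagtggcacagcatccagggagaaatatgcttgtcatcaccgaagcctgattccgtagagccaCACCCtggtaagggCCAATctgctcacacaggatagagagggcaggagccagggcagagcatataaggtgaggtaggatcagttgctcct
The windows were 68.4% identical over their alignment, against 97.6% for the alpha-globin pair. Hbb-bt had CACCC beginning at bases -140, -104 and -89 and CCAAT at -75, with its reverse complement at -80 and -36. Hbb-bs had CACCC at -90, CCAAT at -76 and AGATAA at -210. Of 32851 mouse promoter windows of that kind, 52.0% held CACCC, 33.9% CCAAT, 9.99% AGATAA and 7.94% TGATAA.

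Hbb-bt, an adult beta-globin chain gene, was counted in every library and had the smallest spread of the members in the fit. Its level was 19.0, 12.9 and 27.9 CPM in SS MAC-1- replicates 1 to 3 (260, 247 and 546 counts). In SS MAC-1low it was 26.6, 18.3 and 29.5 CPM. In 4 week MAC-1- it was 11.5, 12.1 and 8.50 CPM, from 183, 320 and 141 counts. The lowest library of the series belonged to this population, and each of its 3 libraries lay below each SS MAC-1- library. In 4 week MAC-1low the level was 42.7, 48.1, 33.1 and 28.5 CPM. In 4 week MAC-1+ it was 95.4, 90.0 and 69.5 CPM, from 2013, 1435 and 1760 counts. The 3 MAC-1+ libraries were the highest of all 16, and no other population reached them. In 10.2% of tested genes all 4 week MAC-1+ libraries lay above all 4 week MAC-1- libraries. The share of genes with MAC-1+ highest of all 16 libraries was not taken.

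By population, Hbb-bt averaged 10.7 ± 1.93 CPM (SD, n = 3) in 4 week MAC-1-, 19.97 ± 7.56 (n = 3) in SS MAC-1-, 24.8 ± 5.86 (n = 3) in SS MAC-1low, 38.1 ± 8.91 (n = 4) in 4 week MAC-1low and 85.0 ± 13.7 (n = 3) in 4 week MAC-1+ HSCs. Its biological coefficient of variation in the fit was 0.446, below which 17.1% of tested genes fell. That of the other members ran from 0.650 for Urod to 2.22 for Hba-a1.

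**Figure D1:**
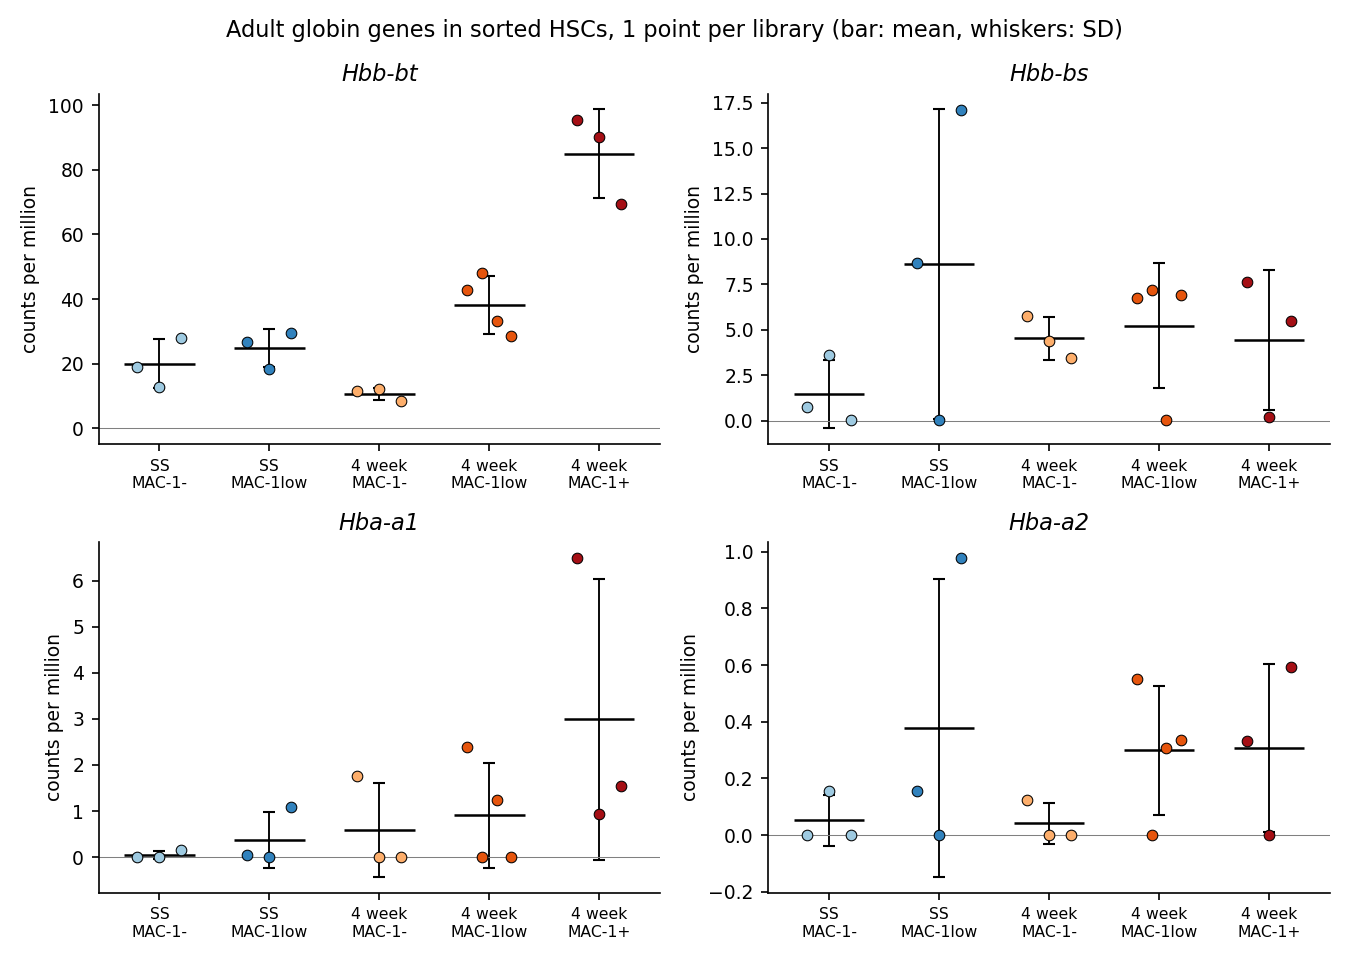
Level of the 4 adult globin genes in CPM (y axis, linear and separate for each gene) by population (x axis), with 1 point per library, a bar at the mean and whiskers of 1 SD. The 3 points of 4 week MAC-1+ for Hbb-bt, from 69.5 to 95.4 CPM, lie above all others, whereas the alpha-globin genes stay at or below 6.49 CPM in every library.

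At 4 weeks, Hbb-bt was 7.94-fold higher in MAC-1+ than in MAC-1- HSCs, a log2 fold change of 2.99 (SE 0.478, adjusted p = 0.00413 in edgeR's quasi-likelihood test with Benjamini-Hochberg adjustment over all 13661 genes tested). It was the 1 member of the 8 tested that passed the threshold of 0.1 in that comparison, where 3.25% of all genes passed. The call held in all 12 alternative analyses that gave Hbb-bt a value. Those that required an adjusted p below 0.05, or a log2 fold change above 1, reused the main fit, so their outcome was fixed. Over the 12, log2 fold changes lay between 2.90 and 3.07, with an adjusted p of at most 0.0473. Hbb-bt was also called after leaving out any 1 of the 16 libraries. Summed with its paralog, the beta-globin pair was at 89.4 ± 14.04 CPM in MAC-1+ against 15.2 ± 2.87 CPM in MAC-1- HSCs at 4 weeks, a log2 fold change of 2.55 (SE 0.469, adjusted p = 0.0105, edgeR), so that the result did not rest on the split between the copies.

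The 4 week MAC-1low libraries were intermediate in Hbb-bt. They lay above all 3 MAC-1- libraries and below all 3 MAC-1+ libraries without overlap. Taken singly, the first separation was shown by 5.23% of tested genes and the second by 3.75%. The share of genes with both was not taken. Against 4 week MAC-1- HSCs the log2 fold change was 1.83 (SE 0.440, adjusted p = 0.170, edgeR), and 4 week MAC-1+ against 4 week MAC-1low gave 1.16 (SE 0.412, adjusted p = 0.634), so that neither neighbouring step passed the threshold. Of the 8 tested members, 0 were called in either comparison, where 0.278% and 0% of all genes were called. In the second of these 936 genes had an unadjusted p below 0.05, and that of Hbb-bt was 0.0131. The comparisons among 4 week populations share libraries and are not independent.

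At steady state, MAC-1low and MAC-1- HSCs overlapped in Hbb-bt, with a log2 difference of 0.31 (SE 0.444, adjusted p = 0.928, edgeR). SS MAC-1- and 4 week MAC-1- libraries did not overlap, which held in that direction for 7.40% of tested genes, and the log2 fold change of -0.90 in 4 week MAC-1- (SE 0.448, adjusted p = 0.493) did not pass. Among MAC-1low HSCs the difference between 4 weeks and SS was 0.62 (SE 0.420, adjusted p = 0.748). The MAC-1low against MAC-1- difference was larger at 4 weeks than at SS by 1.52 on the log2 scale (SE 0.614, adjusted p = 0.501), which also missed the threshold. In these 4 tests 0 of 8 members were called, against 0.0146% of all genes for the SS pair, 0.432% for the MAC-1- pair, 0.0439% for the MAC-1low pair and 0.0586% for the interaction. In the order of Hbb-bt levels no step between neighbours passed the threshold in edgeR, although the libraries of 4 week MAC-1- and SS MAC-1- and those of 4 week MAC-1low and 4 week MAC-1+ did not overlap.

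The choice of tool decided those intermediate steps. DESeq2 called more genes in every comparison in which it called a member, with 11.3% of tested genes for MAC-1+ against MAC-1-, 4.13% for MAC-1low against MAC-1- and 3.09% for MAC-1+ against MAC-1low at 4 weeks, 6.86% for the SS pair, 7.89% for the MAC-1- pair and 5.38% for the interaction. Hbb-bt was its 1 called member in the first 3 of these comparisons, with an adjusted p of 1.38e-07 for MAC-1low against MAC-1- and 0.00427 for MAC-1+ against MAC-1low at 4 weeks. It was also called lower at 4 weeks than at SS among MAC-1- HSCs (adjusted p = 0.0636, DESeq2) and in the interaction (adjusted p = 0.0159, DESeq2). At 4 weeks limma-voom called Hbb-bt for MAC-1+ against MAC-1-, where it called 6.52% of genes, and for MAC-1low against MAC-1- (adjusted p = 0.0726), where it called 2.34%.

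**Figure D2:**
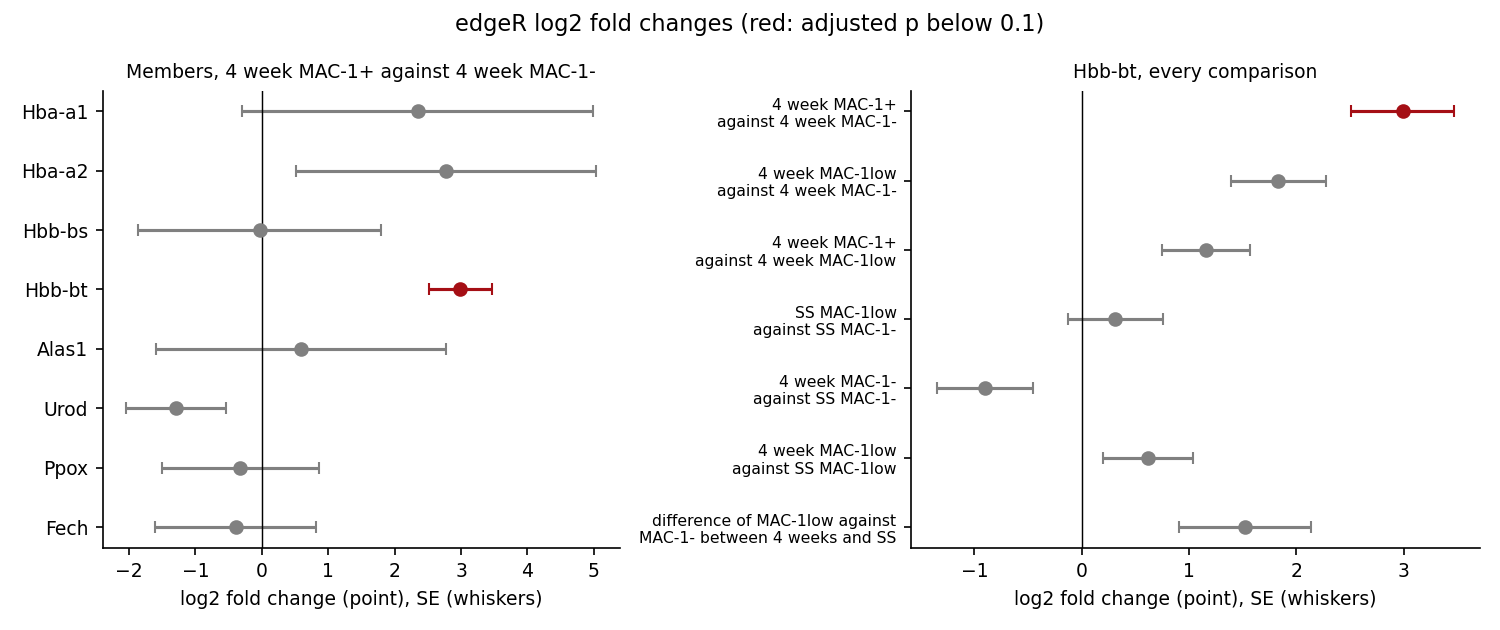
edgeR log2 fold changes (points) with SE (whiskers) on the x axis, for the 8 tested members for MAC-1+ against MAC-1- HSCs at 4 weeks (left) and for Hbb-bt in each comparison (right), with genes at adjusted p below 0.1 in red. Hbb-bt in the first comparison, at 2.99, is the 1 red point.

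Hbb-bs, the other adult beta-globin gene, did not follow Hbb-bt. At SS its counts were 10, 69 and 1 in the MAC-1- libraries and 167, 1 and 332 in the MAC-1low libraries. At 4 weeks they were 92, 116 and 57 in MAC-1-, 110, 157, 1 and 185 in MAC-1low, and 161, 3 and 139 in MAC-1+ libraries. High and low libraries stood side by side in 4 of the 5 populations, and 4 week MAC-1- was the exception. At 4 weeks the level was 4.44 ± 3.83 CPM in MAC-1+ and 4.53 ± 1.17 CPM in MAC-1-, with a log2 fold change of -0.03 (SE 1.83, adjusted p = 1, edgeR).

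In the 4 libraries with 3 or fewer Hbb-bs counts, Hbb-bt had between 327 and 1435 counts, so the low Hbb-bs values did not come with low Hbb-bt. Hbb-bt made up from 63.4% (95% Wilson interval 60.2% to 66.4%) to 99.8% (99.1% to 99.97%) of the adult beta-globin counts of a library, the latter in 4 week MAC-1low replicate 3. The intervals cover counting error only and say nothing of amplification. At 4 weeks the share averaged 70.4% ± 3.50 (SD, n = 3) in MAC-1- and 95.02% ± 4.13 (n = 3) in MAC-1+ libraries. The lowest MAC-1+ share, 92.6%, lay above the highest MAC-1- share, 73.4%. High shares were not particular to 4 week MAC-1+. They ran from 78.2% to 99.8% in SS MAC-1-, from 63.4% to 99.7% in SS MAC-1low and from 80.4% to 99.8% in 4 week MAC-1low libraries.

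The alpha-globin genes, whose chains pair with beta-globin in hemoglobin, were near the floor in most libraries. At SS, Hba-a1 had 0, 0 and 3 counts in the MAC-1- libraries and 1, 0 and 21 in the MAC-1low libraries. At 4 weeks it had 28, 0 and 0 in MAC-1-, 39, 0, 24 and 0 in MAC-1low, and 137, 15 and 39 in MAC-1+ libraries. Only in 4 week MAC-1+ did all libraries exceed 3 counts. The level there was 2.99 ± 3.05 CPM against 0.585 ± 1.01 CPM in MAC-1-, and the populations overlapped (log2 fold change 2.35, SE 2.64, adjusted p = 0.811, edgeR).

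Hba-a2 never exceeded 19 counts and was at 0 in 7 libraries. At 4 weeks it had 7, 0 and 15 counts in the MAC-1+ libraries and 2, 0 and 0 counts in the MAC-1- libraries. The latter are all at or under the floor, so that the fitted log2 fold change of 2.78 (SE 2.26, adjusted p = 0.684, edgeR) depends on the fit's handling of low counts. The alpha-globin sum gave 2.39 (SE 2.45, adjusted p = 0.784). Both alpha-globin genes spread widely between libraries of 1 population, with a biological coefficient of variation of 2.22 for Hba-a1 and 1.73 for Hba-a2.

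Set side by side per kilobase of exon, mean levels over all 16 libraries were 51.0 CPM per kilobase for Hbb-bt, 13.7 for Urod, 6.35 for Hbb-bs, 2.40 for Fech, 2.09 for Ppox, 1.28 for Alas1, 1.203 for Hba-a1 and 0.331 for Hba-a2. Embryonic and other globin genes were at or near 0. Of 7 such genes in the table, including Hbb-y, Hba-x and Hbb-bh1, 4 had no count in any library, none passed the filter on low counts, and the highest value was 3 counts for Hbb-bh1.

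Alas2, the erythroid form of 5-aminolevulinate synthase and the rate-limiting enzyme of heme synthesis in red cell precursors, had 0 counts in each of the 16 libraries. Given 3 counts as the limit that a count of 0 allows, its level was below 0.220 CPM in each library. It could not be tested.

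Alas1, the housekeeping form of the same enzyme, varied more within populations than between them. At SS it had 1, 2 and 493 counts in the MAC-1- libraries and 201, 1 and 259 in the MAC-1low libraries. At 4 weeks it had 9, 229 and 198 in MAC-1-, 91, 99, 260 and 11 in MAC-1low, and 225, 338 and 0 in MAC-1+ libraries. In all 5 populations the highest library exceeded the lowest by more than 10-fold. The 4 week means were 10.6 ± 10.6 CPM in MAC-1+ and 7.06 ± 5.85 CPM in MAC-1- (log2 fold change 0.59, SE 2.19, adjusted p = 0.967, edgeR). Alas1 shares 351 exon bases with an antisense transcript, 4930500F10Rik, and reads of the pair cannot be told apart without strand.

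Urod encodes uroporphyrinogen decarboxylase, a middle step of the pathway, and was the steadiest of the enzymes. At SS it was at 99.3, 41.2 and 30.7 CPM in the MAC-1- libraries and at 54.6, 35.7 and 16.4 CPM in the MAC-1low libraries. After transplantation it was at 22.4, 50.2 and 58.5 CPM in MAC-1-, at 5.51, 42.4, 38.0 and 19.0 CPM in MAC-1low, and at 14.3, 11.0 and 28.2 CPM in MAC-1+ libraries. The 4 week MAC-1+ libraries were toward the low end but overlapped with MAC-1-, and the mean of 17.8 ± 9.12 CPM against 43.7 ± 18.9 CPM gave a log2 fold change of -1.29 (SE 0.750, adjusted p = 0.493, edgeR).

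Ppox encodes protoporphyrinogen oxidase, the step before iron is inserted. At SS it was at 1.83, 5.65 and 0.154 CPM in the MAC-1- libraries and at 42.4, 26.9 and 2.73 CPM in the MAC-1low libraries, where 2 of 3 libraries were the highest of the series and the other lay within the SS MAC-1- range. At 4 weeks it was at 13.3, 9.65 and 7.11 CPM in MAC-1-, at 4.83, 3.76, 6.47 and 2.06 in MAC-1low, and at 11.3, 2.88 and 9.83 in MAC-1+. At 4 weeks the log2 fold change of MAC-1+ against MAC-1- was -0.32 (SE 1.18, adjusted p = 0.967, edgeR). For SS MAC-1low against SS MAC-1- edgeR made no call (log2 fold change 3.23, SE 1.29, adjusted p = 0.521), whereas DESeq2 did (adjusted p = 0.0305), and likewise for the interaction (0.484 in edgeR, 0.0371 in DESeq2). Ppox shares 791 exon bases with B4galt3 on the opposite strand, so its counts may hold reads of that gene.

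Fech, for ferrochelatase, which inserts iron into protoporphyrin to complete heme, was at 4.76, 18.6 and 73.3 CPM in the SS MAC-1- libraries and at 62.0, 1.84 and 79.9 CPM in the SS MAC-1low libraries. After transplantation it was at 27.1, 19.2 and 55.9 CPM in MAC-1-, at 26.8, 58.3, 6.67 and 19.7 CPM in MAC-1low, and at 3.84, 58.4 and 15.6 CPM in MAC-1+ libraries. All 5 populations overlapped. Between MAC-1+ and MAC-1- at 4 weeks the log2 fold change was -0.39 (SE 1.21, adjusted p = 0.959, edgeR).

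**Figure D3:**
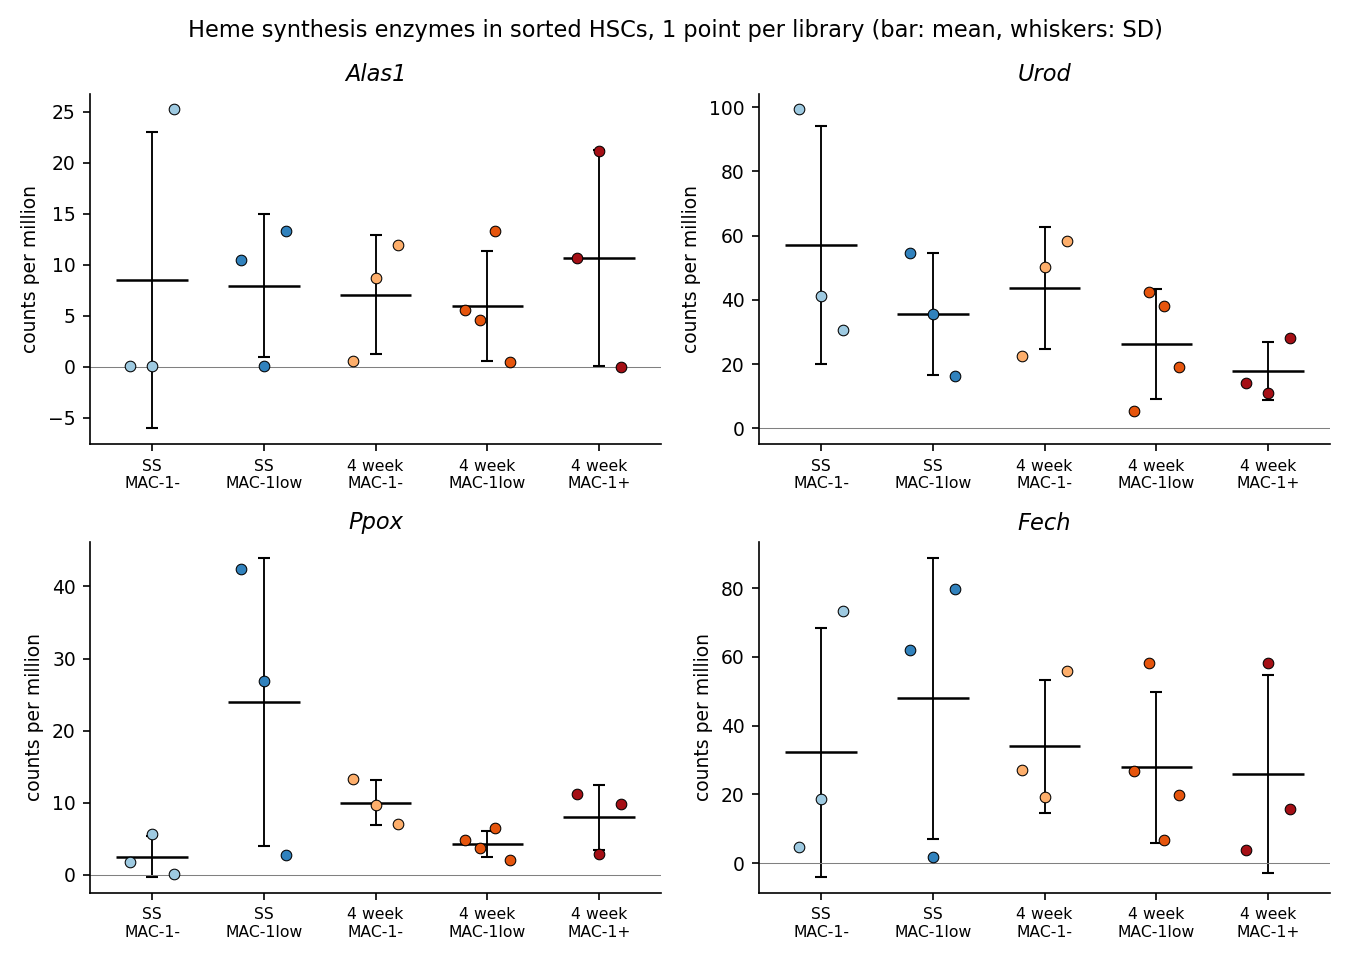
Level of Alas1, Urod, Ppox and Fech in CPM (y axis, linear and separate for each gene) by population (x axis), with 1 point per library, a bar at the mean and whiskers of 1 SD. Libraries of 1 population spread as widely as the populations do, and Ppox reaches 42.4 CPM in 1 of the SS MAC-1low libraries. Alas2 is not drawn, being at 0 counts throughout.

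Alad, Uros and Cpox, which carry out other steps between 5-aminolevulinate and protoporphyrinogen, were tested and edgeR called 0 of these 3 in any comparison. At 4 weeks the median log2 fold change of MAC-1+ against MAC-1- was -0.36 for the 4 tested heme enzymes among the members, beside 0.07 over all genes tested.

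Heme transport, heme breakdown, iron and regulator genes were read from lists of 58 genes in all, embryonic globins and the other enzymes included, of which 49 were tested. Between MAC-1- and MAC-1+ HSCs at 4 weeks, 1 rose with MAC-1 and 3 fell, where 162 of all 13661 genes tested were called higher and 282 lower, 3.25% together. Fth1, the ferritin heavy chain that stores iron, rose to 1645 ± 166 CPM from 1147 ± 70.3 CPM (log2 fold change 0.52, adjusted p = 0.0680, edgeR). Tmem14c, a mitochondrial protein needed for porphyrin import, fell to 53.2 ± 19.9 CPM from 161 ± 31.3 CPM (adjusted p = 0.0335, edgeR). Blvra, biliverdin reductase A in heme breakdown, fell to 58.8 ± 7.62 CPM from 168 ± 37.2 CPM (adjusted p = 0.0607, edgeR). These members do different things within iron and heme handling, and the median over the 49 was 0.07, as for all genes. Without 4 week MAC-1+ replicate 2 or replicate 3, 0 of the 49 were called.

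Gata1, the erythroid and megakaryocytic transcription factor that drives globin genes in maturing red cells, fell. At 4 weeks it had 0 counts in all 3 MAC-1+ libraries and 418, 1340 and 690 counts in the MAC-1- libraries (adjusted p = 0.0468, edgeR), which is at least 264-fold lower when a floor of 3 counts per library is used. Klf1, an erythroid regulator of adult beta-globin, had 0, 0 and 49 counts in the same MAC-1+ libraries and 30, 304 and 193 in the MAC-1- libraries, and was not called. In the other comparisons edgeR called 1 gene of these lists, Fth1, which was lower at 4 weeks than at SS among MAC-1- HSCs (log2 fold change -0.69, adjusted p = 0.0613, edgeR), a call that was lost without SS MAC-1- replicate 2 or 3 or without any 1 of the 3 libraries of 4 week MAC-1-.

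Most erythroblast markers were at or near 0 in most libraries. Of 16 such markers in the table, between 3 and 10 had a count in a library, and edgeR called 0 of the 7 tested in any comparison. Without a filter on low counts edgeR called 1 of the 16 between MAC-1+ and MAC-1- at 4 weeks, a setting for which the share of all genes was not taken. DESeq2 called 1 or 2 in each of the other comparisons, where it called between 3.09% and 7.89% of all genes it tested. At 4 weeks the summed level ran from 42.4 to 208 CPM in MAC-1+ and from 43.4 to 113 CPM in MAC-1- libraries, with much of it from Hemgn, the most abundant of the list, at 65.8 ± 26.9 and 65.4 ± 25.97 CPM. Slc4a1, the red cell anion exchanger, never exceeded 1 count. Replicate 1 of 4 week MAC-1+ had the most Hba-a1 counts, 137. Car1, for carbonic anhydrase of red cells and their precursors, had 414, 0 and 2677 counts in the MAC-1+ libraries and 109, 1 and 0 in the MAC-1- libraries. Without that replicate, or without the library with 2677 Car1 counts, Hbb-bt was still called between MAC-1+ and MAC-1- HSCs at 4 weeks.

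Markers of other cells moved with the same comparison, in which edgeR called 3.25% of all genes tested, 162 higher and 282 lower. The summed level of 6 neutrophil markers was 164, 949 and 6936 CPM in 4 week MAC-1+ replicates 1 to 3 and between 23.1 and 69.2 CPM in the MAC-1- libraries, with 2 of 4 tested called higher, S100a8 and S100a9. Replicate 3, with the most S100a8 at 98876 counts, had the least Hbb-bt of the 3. Megakaryocyte and platelet markers summed to between 156 and 197 CPM in the MAC-1+ libraries and between 4244 and 6733 CPM in the MAC-1- libraries, with 3 of 6 called lower, among them Pf4. Of 10 HSC markers, 7 were called higher in 4 week MAC-1+, and their sum was 3697 to 5118 CPM against 1153 to 1514 CPM. The part of these markers in the Hbb-bt result was not tested, and in bulk samples fewer cells of a type and less RNA per cell cannot be told apart.

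Of the remaining lists, edgeR called 0 of 3 tested macrophage markers (Cd68 the most abundant) and 0 of 1 tested B cell marker (Cd79b) in that comparison. Of 2 tested T and NK cell markers 1, Nkg7, was called lower. The share over all genes was 3.25%, as above.

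**Figure D4:**
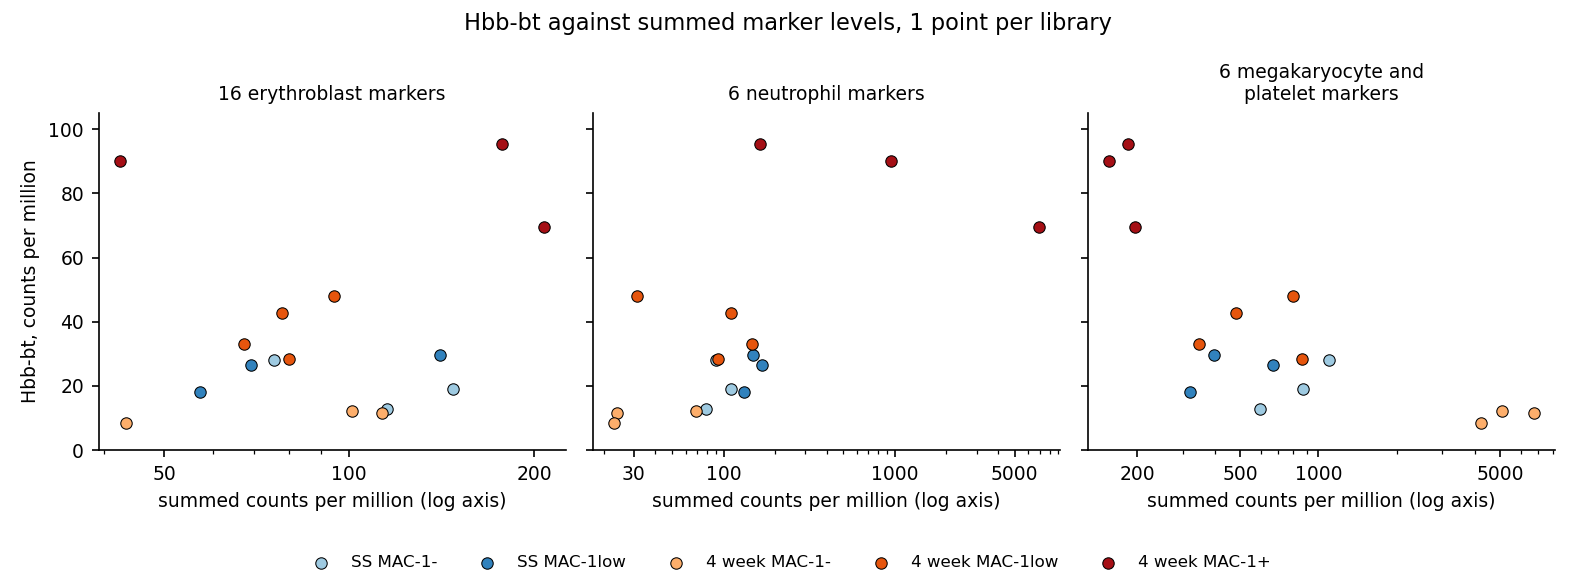
Hbb-bt level in CPM (y axis, linear) against the summed level in CPM (x axis, log) of 16 erythroblast, 6 neutrophil, and 6 megakaryocyte and platelet markers, with 1 point per library coloured by population. The 4 week MAC-1+ libraries span 42.4 to 208 CPM of erythroblast markers at similar Hbb-bt, and the 4 week MAC-1- libraries stand apart at 4244 CPM or more of megakaryocyte and platelet markers with the least Hbb-bt.

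Genes whose pattern was most like a member's were taken by Pearson correlation of log2 CPM over the 16 libraries, which share populations and depth. For Hba-a1 they included Gpr132 (r = 0.84, rho = 0.81), Gm15673 (r = 0.80, rho = 0.87), mmu-mir-703 (r = 0.79, rho = 0.72) and Trim30d (r = 0.77, rho = 0.76). For Alas1 they were Exoc8 (r = 0.84, rho = 0.64), Ptprv (r = 0.81, rho = 0.72), Acly (r = 0.79, rho = 0.70), Ly9 (r = 0.76, rho = 0.65) and Cwf19l1 (r = 0.75, rho = 0.64). For Alas2 there was nothing to correlate. Hbb-bt was added to this reading after its values were seen, and its nearest genes were Wfdc17 (r = 0.89, rho = 0.92), Pqlc3 (r = 0.88, rho = 0.82), Gimap6 (r = 0.87, rho = 0.86), Cd24a (r = 0.86, rho = 0.82) and Ly6a (r = 0.86, rho = 0.87). After leaving out the 2 libraries farthest from the median of the member, r was between 0.81 and 0.90 for these 5, between 0.69 and 0.81 for the 4 genes named for Hba-a1 and between 0.72 and 0.79 for the 5 like Alas1.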

How the data were processed

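Gene counts deposited by the authors for 16 libraries were used as they stood. The authors amplified cDNA with SMART-Seq v4, prepared libraries with Nextera XT and ran the reads through nf-core's RNA-seq workflow with STAR as aligner. For the counting program, build and strand setting, nothing is given in the sources used. The table's gene identifiers matched the GENCODE annotation of GRCm38.p6 for 98.0% of 46078 genes. The members and gene lists were chosen with earlier results of these data known.

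Counts were filtered with edgeR's default rule, scaled by TMM and fitted in 1 quasi-likelihood model of the 5 populations (edgeR 4.0.16, R 4.3.3), with Benjamini-Hochberg adjustment over 13661 genes and calls at adjusted p below 0.1. DESeq2 1.42.0, which the authors also used, and limma 3.58.1 with sample weights were alternatives. Scripts were tested on simulated data. CPM are on the TMM scale, and levels per kilobase divide them by exon length. Named were all 9 members, called genes of the lists, the most abundant marker of each other cell type and, for Hba-a1, Alas2 and Alas1, the 5 genes most correlated. The remaining comparisons of Hbb-bt and the edgeR and DESeq2 values of Ppox were added after their values were seen. No library was a duplicate (chi-square per degree of freedom of at least 120 between replicates). Ahsp was not analysed here, and some genes of the lists and of the correlation ranking are not reported here.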

Additional observations from a re-analysis of the deposited data

Results flagged for a closer look

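Hbb-bs in 4 week MAC-1low replicate 3 was at 0.0513 CPM, from 1 count, far below the other 3 libraries of that population at 6.73, 7.20 and 6.92 CPM. The gap made up 0.935 of the range. Hbb-bt in the same library was at 33.1 CPM, within the range of the population. Of the populations, this one alone had the 4 libraries that the criterion needs, 8 members were examined in it, and chance flags about 1 in 20.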

How the results depend on the processing

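The call of Hbb-bt between MAC-1+ and MAC-1- HSCs at 4 weeks held under each of the 13 alternatives, with 1 member called in each, the sum of the beta-globin pair included, and in each of the 16 analyses that left out 1 library. The alternatives that changed only the threshold reused the main fit, so their outcome for Hbb-bt was fixed by it. DESeq2 called 1 member for MAC-1low against MAC-1- at 4 weeks, 1 for MAC-1+ against MAC-1low, 1 for MAC-1low against MAC-1- at SS, 1 for MAC-1- HSCs between 4 weeks and SS and 2 for the interaction, where edgeR called 0. limma-voom called 1 for MAC-1low against MAC-1- at 4 weeks. The cause was not tested.

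Directions of members near 0 were not stable between MAC-1+ and MAC-1- at 4 weeks. For Hbb-bs the log2 fold change turned to 0.0461 with DESeq2, 0.0422 with DESeq2 size factors, 0.0266 without a filter on low counts, 0.97 with the number of detected genes as covariate and 0.0513 with the replicate block, and it ran from -0.67 to 0.57 when 1 library was left out. Alas1 turned to -1.66 with limma-voom and -0.27 with the covariate (-0.39 to 1.198 leaving out 1 library), and Ppox to 0.56 with the covariate (-0.65 to 0.11). Fech ran from -1.78 to 0.17 when 1 library was left out.

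In the same comparison the called genes of the pathway lists, 4 in number, ranged from 1 to 6 over alternatives and from 0 to 5 over left-out libraries, with 0 without 4 week MAC-1+ replicate 2 or replicate 3. In the other comparisons, where edgeR called 0 or 1 of them and 0 erythroblast markers, DESeq2 called between 1 and 5 of them and 1 or 2 erythroblast markers. DESeq2 called between 3.09% and 7.89% of all genes it tested in those comparisons. The replicate block left the count of called members at 1 there and at 0 in the other comparisons. Replicate numbers showed no pairing of the samples. Same-numbered libraries of different populations deviated together with r of -0.02 to 0.04, and 6 of 16 libraries correlated best with their own number. The sample names run in another order, in which 4 week MAC-1- replicate 2 follows replicate 3 of the other 4 week populations. Pairing by that order was not tested, so neither the numbers nor the block settle whether libraries were paired. The block fit gives 4 week MAC-1low replicate 4 a term of its own, so that library does not inform it.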

Other observations

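The members did not move as 1 group. Over the 28 pairs of the 8 detected members, Pearson correlations of log2 CPM across the 16 libraries had a median near 0 (-0.00199) and ran from -0.71 for Hba-a1 with Urod to 0.62 for Hba-a1 with Hba-a2. Hba-a1 and Hbb-bt, which encode the partner chains of hemoglobin, gave r = 0.59 (rho = 0.47), Hbb-bt and Hbb-bs r = -0.01 (rho = 0.24), and Hbb-bt and Urod r = -0.56 (rho = -0.60). The libraries share populations, and the low counts of several members bound what these values can say.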
